A study of Caenorhabditis elegans with 2 samples.

Results

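The str and srd genes are large families of chemoreceptor genes of the nematode Caenorhabditis elegans, and their promoters were examined here for binding of the transcription factor ELT-3 in first-stage (L1) larvae. Members were all protein-coding genes of Ensembl release 115 on the ce11 assembly whose symbol is str or srd followed by a number. There were 260 such genes among 19973 protein-coding genes, of which 193 were str and 67 were srd genes. Binding was measured by ChIP-seq in whole larvae of strain OP75, with the genotype unc-119(ed3) III and the transgene wgIs75. The transgene expresses ELT-3 with a GFP-FLAG tag at its C terminus. The labels give males and females pooled and an unknown age within the stage, and the 2 biological replicates form 1 group, with no second genotype or treatment to compare. The driving promoter of the transgene is not given in the sources used here. In whole larvae, binding in a few neurons and no binding cannot be told apart where no peak was called. The families were chosen by an earlier look at these peaks, in which chemoreceptor promoters held few peaks and the highest-signal peaks of the families lay at srd-65, str-144 and str-176. Those values are therefore given as a description, with no test.

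Chemoreceptor genes encode proteins that cross the membrane several times and couple to G proteins. Most that have been studied are made in one or a few pairs of ciliated sensory neurons, where they detect odours, pheromones or other small molecules. The nematode genome holds many families of them, often in tandem runs of similar genes on chromosome V. ELT-3 is a GATA-type zinc-finger factor known from the epidermis, and factors of this type bind the hexamer WGATAR, in which W is A or T and R is A or G.

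A gene was counted as having a summit when the highest point of a peak lay between 1500 bp upstream and 500 bp downstream of its 5′ end. Peaks came from 4 lists. The IDR set, made from both replicates and labelled as the optimal thresholded list, held 1014 peaks. IDR keeps peaks by how alike they rank between lists, and the label does not say which lists were compared. Not every IDR peak overlaps a peak in the replicate lists. The replicate 1 list held 17087 peaks, the replicate 2 list 7079 and the pooled list 30000. The replicate and pooled lists are labelled as peaks and background, so they are permissive by design. Each peak carries the authors' own signal value, used here only to rank peaks within a list, with rank 1 the highest. The strongest IDR peak, with a signal of 281, lay in elt-3 itself at chrX:13937404-13937659. Read depth is unknown, since the lists give no read counts, and the 95% Wilson intervals below cover counting over genes only, although tandem copies and shared peaks make genes less than independent.

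Sequences around the summits of some members found in both replicates are shown first. They are a choice, and all of them hold the motif. The shared place at srd-42, with 0 WGATAR sites, is not printed, and neither is that at str-116. Each printed sequence is the ce11 plus strand, 5′ to 3′, within 75 bp of the summit, and capitals mark WGATAR on either strand. The srd-65 sequence is cut where the annotated 5′ UTR of a neighbouring gene begins. It covers chrIII:2224608-2224671. The str-176 upstream and intron sequences cover chrIV:8464290-8464440 and chrIV:8463192-8463342, and that of str-144 covers chrV:8073229-8073379. These 4 were taken around IDR summits. The cut leaves the srd-65 summit, at chrIII:2224683, just beyond the right end of the printed stretch. The 2 srd-65 sites begin 36 and 20 bp to the left of that summit. The str-7, str-171 and srd-43 sequences were taken around replicate 2 summits. They cover chrV:16100224-16100374, chrV:15133922-15134072 and chrX:13307013-13307151, the last again cut at an annotated UTR.
srd-65: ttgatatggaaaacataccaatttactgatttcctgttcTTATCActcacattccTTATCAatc
str-176 upstream: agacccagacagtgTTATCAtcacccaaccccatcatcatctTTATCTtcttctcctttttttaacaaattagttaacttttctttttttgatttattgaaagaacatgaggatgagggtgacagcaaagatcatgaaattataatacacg
str-176 intron: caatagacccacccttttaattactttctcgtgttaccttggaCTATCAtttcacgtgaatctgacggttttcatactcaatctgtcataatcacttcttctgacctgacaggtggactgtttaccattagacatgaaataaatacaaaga
str-144: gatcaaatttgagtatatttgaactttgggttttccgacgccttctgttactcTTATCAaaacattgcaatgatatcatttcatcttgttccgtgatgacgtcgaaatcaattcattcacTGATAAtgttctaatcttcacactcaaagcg
str-7: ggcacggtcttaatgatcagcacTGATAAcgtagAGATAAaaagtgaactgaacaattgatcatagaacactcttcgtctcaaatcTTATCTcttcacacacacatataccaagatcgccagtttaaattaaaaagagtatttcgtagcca
str-171: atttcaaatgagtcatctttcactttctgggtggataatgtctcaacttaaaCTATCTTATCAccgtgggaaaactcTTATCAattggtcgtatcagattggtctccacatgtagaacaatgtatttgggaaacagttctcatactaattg
srd-43: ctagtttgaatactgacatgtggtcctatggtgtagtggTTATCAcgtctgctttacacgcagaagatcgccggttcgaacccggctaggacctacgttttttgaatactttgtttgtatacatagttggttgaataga

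Few str and srd promoters held a peak of the IDR set. An IDR summit lay in the windows of 3 of the 260 genes, srd-65, str-144 and str-176, which is 1.15% (interval 0.393 to 3.34%). Over all protein-coding genes the share was 2.95%. Among 2168 neighbours, which are genes of no chemoreceptor family with a 5′ end within 50 kb of a str or srd 5′ end, 74 had an IDR summit, or 3.41% (2.73 to 4.26%). Because the families were chosen with this scarcity in view, no test was made of it. The other chemoreceptor families had 4 genes of 1050 with an IDR summit, or 0.381%.

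The larger lists gave more counts, and the members again stood below all genes and the neighbours. In replicate 2, 15 members had a summit, or 5.77% (3.53 to 9.30%), beside 17.9% of all protein-coding genes and 18.2% (16.7 to 19.9%) of the neighbours. In replicate 1, 48 members had one, or 18.5% (14.2 to 23.6%), beside 33.9% of all genes and 33.3% (31.3 to 35.3%) of the neighbours. The pooled list gave 96 members, or 36.9% (31.3 to 42.9%), beside 52.1% of all genes and 50.2% (48.1 to 52.3%) of the neighbours. A summit in both replicate lists, at any distance from each other, was found for 10 members, or 3.85%, beside 13.6% of all genes and 14.3% of the neighbours. The neighbours were close to all genes in each list. The members' lower values are the ones the families were chosen on, so nothing is read from their intervals.

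**Figure D1:**
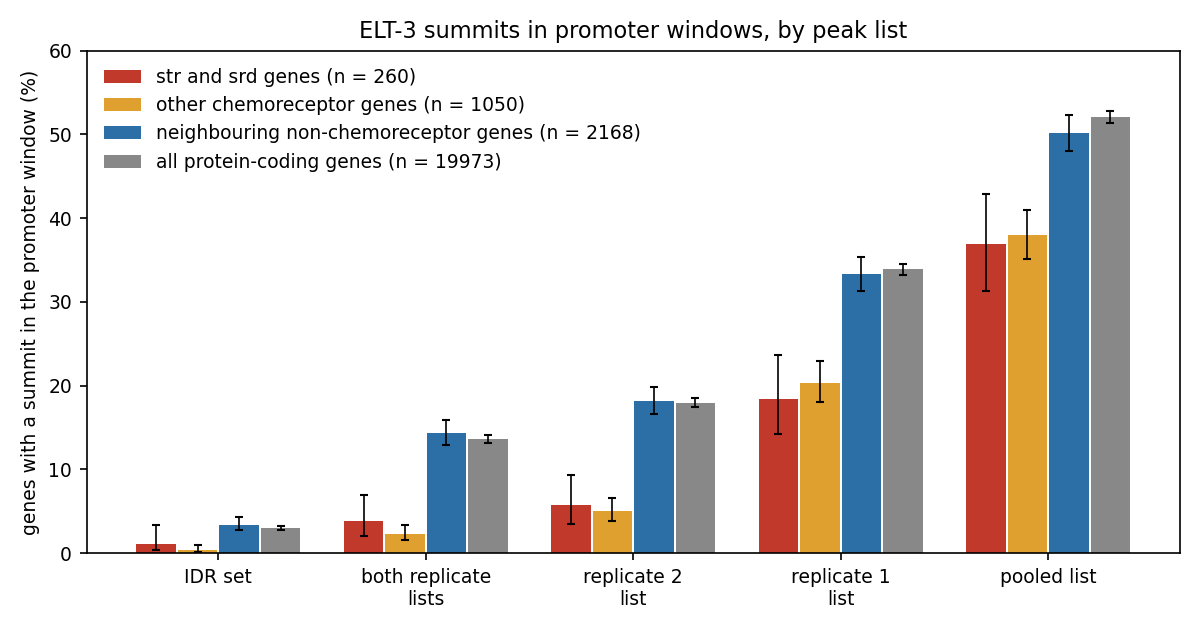
Percent of genes with a summit in the promoter window (vertical axis) in each peak list (horizontal axis) for 4 groups of genes, with 95% Wilson intervals over genes as bars. The str and srd genes (red) lie below the neighbouring genes, at 5.77% against 18.2% in replicate 2 and 18.5% against 33.3% in replicate 1. They lie close to the other chemoreceptor genes in the replicate 1, replicate 2 and pooled lists.

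The plot of shares by list shows that the other chemoreceptor genes had values close to those of the str and srd genes in the replicate and pooled lists. They had a summit in 5.05% of 1050 genes in replicate 2, 20.4% in replicate 1 and 38.0% in the pooled list. The str and srd intervals take in these values in these 3 lists. In the IDR set the other chemoreceptor genes' 0.381% lay just below the str and srd interval of 0.393 to 3.34%. Most members, 153 genes or 58.8%, had no summit in any of the 4 lists, beside 45.4% of the neighbours and 42.9% of all genes. A further 54 had a pooled summit alone, the best of which ranked 10040 of the 30000 pooled peaks.

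The srd genes had somewhat higher shares than the str genes. In replicate 1, 17 of 67 srd genes had a summit, or 25.4% (16.5 to 36.9%), and 31 of 193 str genes, or 16.1% (11.6 to 21.9%). In replicate 2 the values were 7.46% (3.23 to 16.3%) for srd and 5.18% (2.84 to 9.27%) for str genes. The intervals overlap in both lists, so the families are not set apart in this window at these numbers. In the pooled list 41.8% of srd and 35.2% of str genes had a summit.

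Among 17 chemoreceptor families of 20 or more genes, str and srd were not at the ends of the range. Replicate 1 shares ran from 14.8% in srt to 28.6% in sra, and replicate 2 shares from 0% in srab to 13.5% in srsx. Each of the 17 families stood below the neighbours' 33.3% in replicate 1 and below their 18.2% in replicate 2. Among the families under 20 genes, srr (9 genes) stood above the neighbours, at 44.4% in replicate 1 and 33.3% in replicate 2. The srb family (12 genes) had 33.3% in replicate 1 and 0% in replicate 2, and srm, srn and srxa were below in both lists. The only other chemoreceptor genes with an IDR summit belonged to the srh family. They were srh-282, srh-2, srh-76 and srh-17, with IDR signals of 52.0, 49.5, 47.8 and 52.6, all below those of the 3 str and srd genes. The srh-282 summit lay 2 bp from the start of sma-10, and the srh-2 summit lay in an intron of icl-1. The diacetyl receptor gene odr-10, a chemoreceptor with a known ligand, had no summit in any list.

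**Figure D2:**
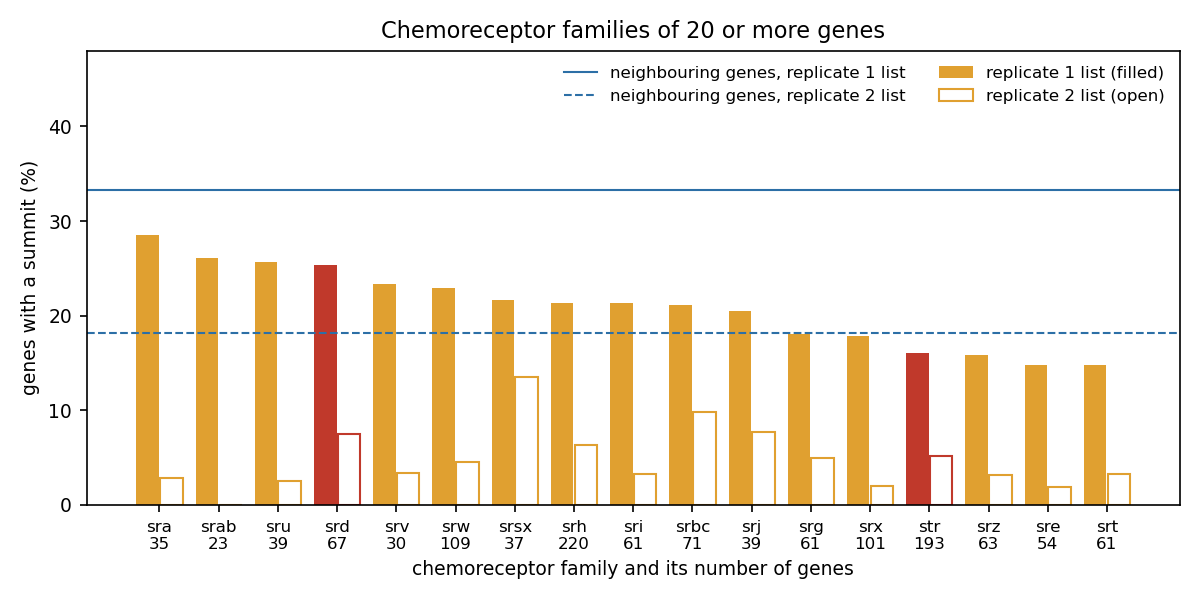
Percent of genes with a summit in the replicate 1 list (filled bars) and the replicate 2 list (open bars) for each chemoreceptor family of 20 or more genes, with str and srd in red and the number of genes under each name. Blue lines mark the neighbouring genes at 33.3% (replicate 1) and 18.2% (replicate 2), and all 17 families lie below the line of the same list.

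The position of the summits differed as well as their number. Among the neighbours, summits gathered just upstream of the gene start, and the 250 bp before the 5′ end was the fullest bin in every list. In replicate 2 the neighbours had 212 summits in the 500 bp upstream of their starts, or 4.89 per 100 genes per 250 bp, against 1.74 between 1500 and 3000 bp upstream. The str and srd genes had 0 replicate 2 summits in the 500 bp upstream, against 1.41 per 100 genes per 250 bp further out. With 3 counts taken as the limit that a count of 0 allows, up to 1.15% of the 260 genes could have one. In replicate 1 the members had 13 summits in those 500 bp, or 2.5 per 100 genes per 250 bp, and 3.14 further out, where the neighbours had 7.47 and 3.74. In the pooled list the members had 4.81 near the start and 7.12 further out, and the neighbours 10.9 and 7.03. In that more distant block the pooled densities of members and neighbours were close. Single pooled bins elsewhere also lay below the neighbours, as in the plot of summits around starts.

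**Figure D3:**
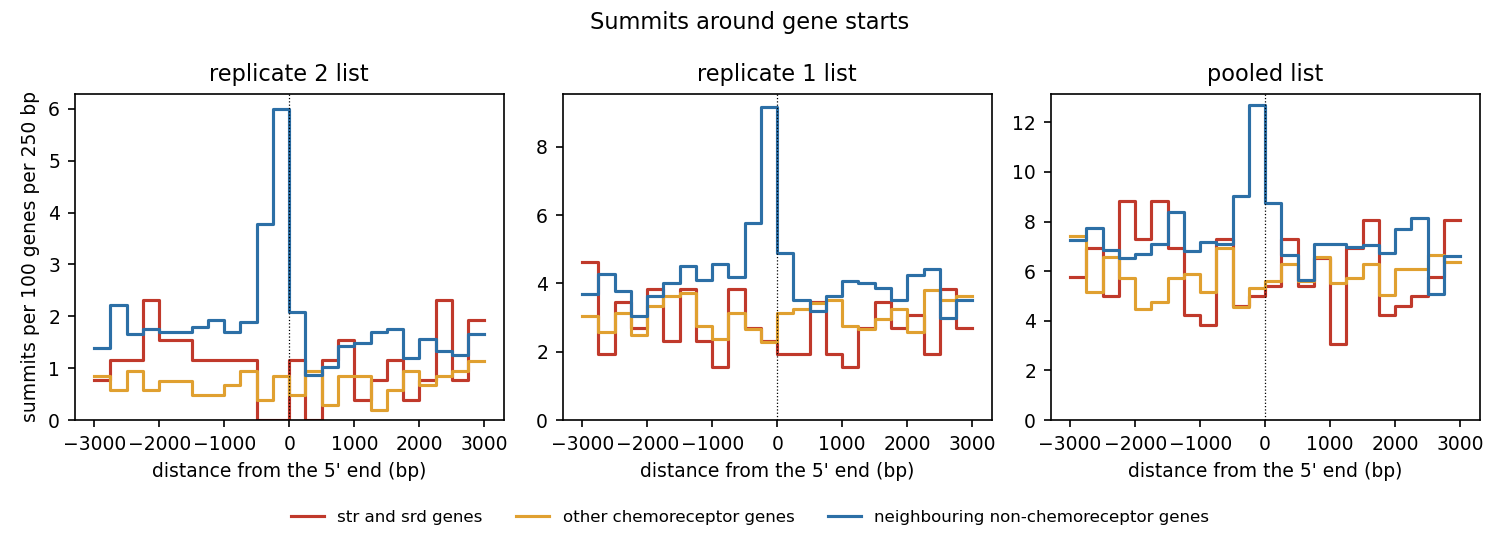
Summits per 100 genes in bins of 250 bp (vertical axis) against the distance from the gene's 5′ end, negative values upstream, in the replicate 2, replicate 1 and pooled lists. Neighbouring genes (blue) peak in the 250 bp upstream of the start, and the str and srd genes (red) and other chemoreceptor genes (orange) have no such peak.

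A narrower window, from 500 bp upstream to 250 bp downstream, lowered every share. The IDR set then held 0 members, beside 1.68% of all genes and 2.17% of the neighbours. Replicate 2 held 3 members (1.15%), beside 10.8% of all genes and 11.7% of the neighbours. These 3, srd-8, str-45 and str-233, all had their summit downstream of the start, at 138, 170 and 83 bp. They were named after their values were seen. Replicate 1 held 18 members (6.92%), beside 18.1% of all genes and 19.2% of the neighbours, and the pooled list 38 members (14.6%), beside 28.7% and 28.8%. The other chemoreceptor genes were close to the members in this window. Their shares were 0% in the IDR set, 1.71% in replicate 2, 8.10% in replicate 1 and 14.9% in the pooled list. Near the start the srd genes were again above the str genes, with 11 of 67 (16.4%, 9.42 to 27.1%) against 7 of 193 (3.63%, 1.77 to 7.30%) in replicate 1. These intervals do not overlap, though the difference was not tested. In replicate 1 the srd share is close to the 18.1% of all genes, and the str share is below it. Replicate 2 did not show this split. There the counts were 1 srd gene (1.49%) and 2 str genes (1.04%), both below the 10.8% of all genes and too few to set apart.

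Where the members did have summits in the permissive lists, the signals were mostly weak. The 3 IDR summits were an exception, with a median signal percentile of 77.1 in that set, beside 60.1 for the neighbours and 51.2 for all genes. The 53 replicate 1 summits in member windows had a median signal percentile of 41.5 within the list, and the neighbours' summits 54.2. In replicate 2 the medians were 41.7 for 15 summits and 55.5, and in the pooled list 39.4 for 115 summits and 54.5. Weak signals were not particular to the members. Summits of the other chemoreceptor genes had medians of 36.9 in replicate 1, 25.5 in replicate 2 and 39.6 in the pooled list. Their 4 IDR summits had 18.0. Taking as many of the strongest pooled peaks as the IDR set holds, 5 members had a summit (1.92%), beside 3.41% of all genes and 3.83% of the neighbours. Among the strongest 5000 pooled peaks it was 10 members (3.85%) beside 14.1% of all genes and 14.9% of the neighbours. Among the strongest 10000 it was 21 (8.08%) beside 23.3% and 23.4%.

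Summits in both replicates rested on few genes. Of the 260 members, 38 (14.6%) had a summit in replicate 1 alone, beside 20.3% of all genes. In replicate 2 alone it was 5 (1.92%), beside 4.32%, and 10 had one in both, as given above. The 38 ranked between 2508 and 16306 in replicate 1, with a median of 10177.5. The 5 were str-20, str-160, str-94, str-45 and str-233, again named after their values were seen, and ranked from 4126 to 6425 in replicate 2. Requiring the summits of both replicates to lie within 100 bp of each other, a rule added after the data were seen, left 8 members (3.08%, 1.57 to 5.95%). The same rule called 10.6% of all genes and 11.7% (10.4 to 13.1%) of the neighbours. The 8 were srd-65, str-176, str-144, str-116, str-171, str-7, srd-42 and srd-43.

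**Figure D4:**
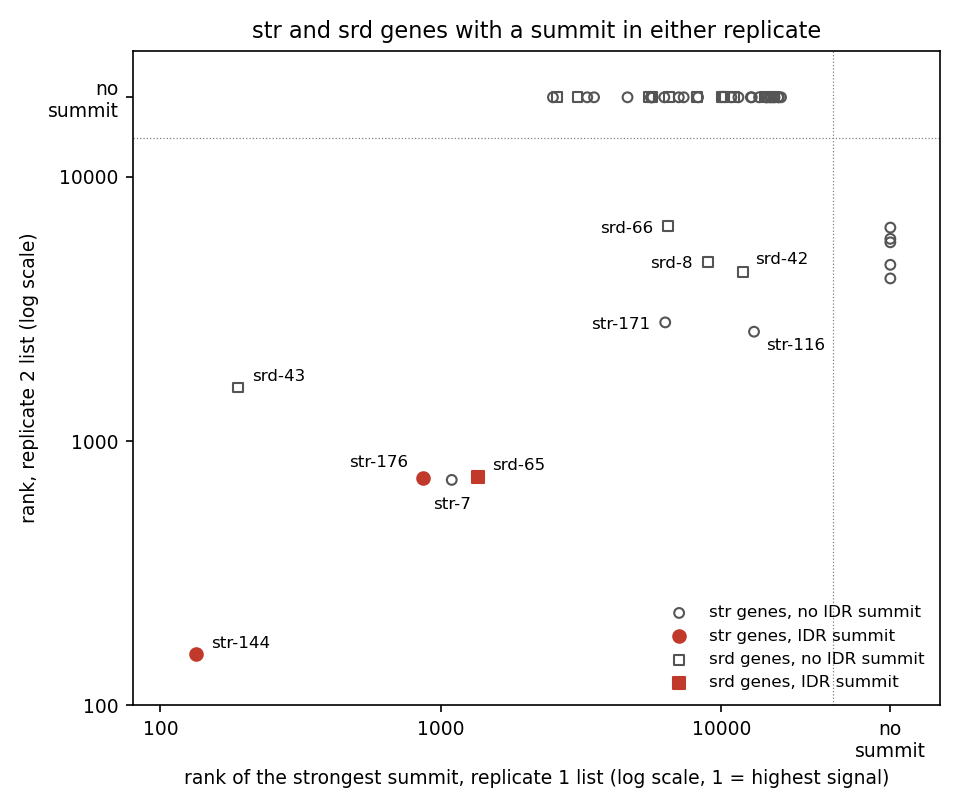
Rank of each str or srd gene's strongest summit in the replicate 1 list (horizontal, log scale) and the replicate 2 list (vertical, log scale), with genes absent from one list on the margin marked no summit. The genes with an IDR summit (filled) and str-7 lie at ranks up to 1354 in both lists, and most genes lie on the upper margin, with a weak summit in replicate 1 alone.

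The plot of ranks sets apart 5 members, str-144, str-176, srd-65, str-7 and srd-43, which ranked 1596 or better in both replicate lists. The strongest was str-144 (WBGene00006191, chrV:8070643-8072147, minus strand), a receptor gene of unstated ligand in a run of 11 members on chromosome V. Its IDR peak at chrV:8073176-8073431 had a signal of 77.4 and rank 233, and its summit lay 1157 bp upstream in intergenic sequence, with no gene start nearer. Its signal was 45.4 in replicate 1 (rank 134), 71.7 in replicate 2 (rank 156) and 113 in the pooled list (rank 158). It was the best-ranked member in each of these 3 lists.

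The gene srd-65 (WBGene00005142, chrIII:2222438-2224032, minus strand) had the best-ranked IDR peak, with a signal of 81.2 and rank 201 at chrIII:2224555-2224810. The summit lay 651 bp upstream of srd-65 but only 11 bp inside fbxa-38, a gene of the F-box A family, in its 5′ UTR. The signal was 20.02 in replicate 1 (rank 1354), 43.4 in replicate 2 (rank 733) and 65.9 in the pooled list (rank 768). The nearest gene start to this summit is thus not that of a receptor gene.

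The gene str-176 (WBGene00006220, chrIV:8460999-8463816, minus strand) had a pair of IDR peaks around its start. One, at chrIV:8464237-8464492, had a signal of 65.4 and rank 411 and its summit lay 549 bp upstream in intergenic sequence. Its signal was 24.6 in replicate 1 (rank 865), 43.5 in replicate 2 (rank 726) and 68.7 in the pooled list (rank 694). The other, at chrIV:8463139-8463394, lay in an intron with its summit 549 bp downstream of the start, just outside the window. It was the stronger of the pair in each list, with an IDR signal of 70.0 (rank 319), 31.9 in replicate 1 (rank 445), 48.3 in replicate 2 (rank 561) and 81.6 in the pooled list (rank 460).

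The other 2 of these members, str-7 and srd-43, had no IDR summit, although their peaks ranked 701 and 570 in the pooled list. The str-7 summits had a signal of 22.1 in replicate 1 (rank 1093) and 43.7 in replicate 2 (rank 713), 25 bp apart. They lay 733 and 758 bp upstream of str-7 (chrV:16097824-16099541) but 406 and 381 bp from the start of cth-1, which encodes cystathionine gamma-lyase and is nearer. The srd-43 summits ranked 189 in replicate 1 (signal 42.1) and 1596 in replicate 2 (signal 30.1), 27 bp apart and 1217 and 1244 bp upstream of srd-43. That peak covers a tRNA gene, WBGene00014478 at chrX:13307034-13307106, and 82.6% of its 32-base stretches in replicate 1 occur once in the genome. Transfer RNA genes often have near-identical copies, and the origin of the reads at this peak was not tested.

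The remaining members found in both replicates were weaker. The str-171 summits (ranks 6304 and 2813) lay 10 bp apart, 1484 and 1474 bp upstream, with no nearer gene start. The str-116 summits (ranks 13065 and 2594) lay 4 bp apart but only 28 and 24 bp from the start of cln-3.1, a homologue of the human lysosomal gene CLN3. For srd-42, a replicate 1 summit of rank 15126 and the replicate 2 summit of rank 4352 lay 32 bp apart within an intron of srd-43. The summits of srd-66 lay 381 bp apart. The best summits of srd-8 lay 1279 bp apart, but another replicate 1 peak of rank 10038 overlapped its replicate 2 peak, with summits 172 bp apart. Of the 8 places shared within 100 bp, 5 had a str or srd start as the nearest protein-coding start and 3, at srd-65, str-7 and str-116, did not.

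That split held more widely. Of the summits in member windows, 41 of 53 in replicate 1, 11 of 15 in replicate 2 and 96 of 115 in the pooled list lay nearest to a str or srd start. The others, except 1 pooled summit, lay nearest to a gene of no chemoreceptor family. Members with such a start within 2 kb, 76 genes, had a replicate 1 summit in 26.3% of cases and a pooled summit in 44.7%. The 184 members without one had 15.2% and 33.7%. Under the same split the neighbours had 36.6% and 52.2% with a second such start and 30.7% and 48.5% without, the same direction. What part the neighbouring promoters have in the members' counts was not tested.

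The motif was as common in member promoters as elsewhere. WGATAR, searched on both strands, occurred in the 250 bp upstream of 130 of 260 members, or 50% (43.97 to 56.0%). The same window held it in 49.1% of all protein-coding genes, 52.7% of the neighbours and 42.7% of other chemoreceptor genes. TGATAA, which is 1 of the WGATAR hexamers, occurred there in 25.4% of members, 26.8% of all genes and 29.98% of the neighbours. The whole window held WGATAR in 99.2% of members and 98.5% of all genes, with a median of 5 sites in each group. Members with the motif in those 250 bp had a replicate 1 summit in 20% of cases and those without it in 16.9%, and for the neighbours the values were 35.8% and 30.5%. In both groups the promoters with the motif held a summit only slightly more often.

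At the summits themselves, WGATAR was frequent where both replicates had a summit and not over all replicate 1 or pooled summits. It lay within 50 bp of all 3 IDR summits in member windows, with 2 sites at srd-65, 1 at str-176 and 2 at str-144. The str-176 sequence printed above holds another site further out, 61 bp from the summit. Windows of the same size 500 bp to either side held it in 16.7% of cases. For the IDR summits in windows of all genes the values were 48.2% and 20.4%. Around the 8 replicate 2 summits shared with replicate 1, it occurred at 6 (75%) and in 18.8% of flanks. Of these 6, those at srd-65, str-7 and str-116 lay nearest to the start of a gene of no chemoreceptor family. The neighbours' 203 shared summits had 40.9% and 20.2% and those of all genes 34.6% and 21.0%. The other chemoreceptor genes' 15 shared summits had the motif in 46.7% and their flanks in 13.3%. All 15 replicate 2 summits of the members had it in 53.3% and their flanks in 26.7%, beside 31.8% and 21.4% for all genes. The srd-42 place had no site within 100 bp, and the str-176 site lay just beyond 50 bp of the replicate 2 summit. In contrast, the 53 replicate 1 summits had the motif in 28.3% and their flanks in 32.1%, and the 115 pooled summits in 23.5% and 23.0%. For the neighbours the replicate 1 values were 31.02% and 21.9%, and the pooled values 28.4% and 22.8%. Over all of the members' replicate 1 or pooled summits, the motif was no more frequent than in their flanks. In str-171, printed above, 2 of its 3 sites overlap in 1 run, and in srd-43 the single site lies within the tRNA gene.

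The members with known sensory roles had no summit in the IDR set or in either replicate list. No summit in any list was found for str-1, a gene of the AWB odour neurons, str-2, which is made in only 1 of the pair of AWC neurons, str-3 of the ASI neurons or srd-1, a pheromone receptor gene of male AWA neurons. The AWA gene str-44 had 2 pooled summits alone, the better with rank 20455 at 267 bp downstream of the start. The DEET-response gene str-217 of the ADL neurons had 1, with rank 24283 at 28 bp upstream. The motif was present all the same, with 2 sites in the 250 bp upstream of str-1 and str-2, 1 at str-3, str-44 and srd-1, and 0 at str-217. The 250 bp before str-2 (chrV:9824250-9824499, minus strand) and before srd-1 (chrII:10182735-10182984, minus strand) are printed 5′ to 3′ on the gene's strand to show promoters with the motif in capitals and no summit. The str-2 sites begin 139 and 118 bp upstream, and the srd-1 site 11 bp upstream, of the annotated 5′ end.
str-2: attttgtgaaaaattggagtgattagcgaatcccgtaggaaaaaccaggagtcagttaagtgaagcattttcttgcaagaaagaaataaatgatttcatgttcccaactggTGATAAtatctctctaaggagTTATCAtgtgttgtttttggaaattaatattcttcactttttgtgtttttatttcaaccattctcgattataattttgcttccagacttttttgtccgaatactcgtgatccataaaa
srd-1: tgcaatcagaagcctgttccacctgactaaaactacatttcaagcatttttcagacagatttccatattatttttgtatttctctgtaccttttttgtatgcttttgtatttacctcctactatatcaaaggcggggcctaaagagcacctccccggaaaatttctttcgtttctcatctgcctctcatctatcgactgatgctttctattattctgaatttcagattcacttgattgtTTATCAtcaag

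Genes that act with these receptors were counted beside them. Of 36 listed genes of receptor trafficking, signal transduction and str gene regulation, 35 were matched and 0 had an IDR summit, which by the same limit of 3 allows a share of up to 8.57%. In replicate 2, 8 had a summit (22.9%), in replicate 1 it was 14 (40%), and in the pooled list 21 (60%). Over 35 genes the intervals (12.1 to 39.0%, 25.6 to 56.4% and 43.6 to 74.4%) take in the all-gene shares of 17.9%, 33.9% and 52.1%. The 6 with a summit in both replicates, named after their values were seen, were arr-1, kin-29, nsy-1, sek-1, tax-6 and unc-43, which are an arrestin, a salt-inducible kinase, members of a MAP kinase cascade, calcineurin A and a calcium/calmodulin-dependent kinase. Under the rule of 100 bp applied to the receptors, 3 of these genes, arr-1, kin-29 and sek-1, were left. The kinases nsy-1, sek-1 and unc-43 act in the AWC neurons to set which of the pair makes str-2.

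The place of the members in the genome was compared with that of their neighbours. Chromosome V held 188 of the 260 members (72.3%), with 34 on IV and 19 on X. On V alone, members had a replicate 1 summit in 17.0% and neighbours in 31.5% of cases, and a replicate 2 summit in 4.79% and 17.4%. On IV the replicate 1 values were 20.6% and 36.3%, and on X 21.1% and 34.9%. The members were thus below their neighbours on each of these 3 chromosomes in replicate 1. In the pooled list they were below on V (34.0% and 50.3%) and X (42.1% and 50.8%) but close on IV (44.1% and 44.9%). On III, with only 8 members, the order in replicate 2 was the other way. There 2 members (25%), srd-65 and srd-66, had a summit, beside 20.6% of the neighbours and 20.9% of all genes. Members on III were also above their neighbours in the IDR set (12.5% and 4.12%) and in both replicates (25% and 16.5%). Their pooled shares were close (50% and 49.5%).

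Many members stand in tandem runs, defined here as successive 5′ ends no more than 20 kb apart. There were 85 single genes, 92 genes in 37 runs of 2 to 4, and 83 genes in 11 runs of 5 or more. A replicate 1 summit was found for 23.5%, 20.7% and 10.8% of these classes, and a pooled summit for 42.4%, 34.8% and 33.7%. The longest run, 16 genes from str-173 to str-164 on IV, had 2 genes with a replicate 1 summit, 9 with a pooled summit and 0 in replicate 2 or the IDR set. Runs of 7, 7 and 6 genes on V had no summit in any list. In 2 of these, the run of 7 from srd-61 to str-119 and that of 6 from srd-61 to srd-71, every window lacked unique sequence altogether by the measure described next. In the other, from str-254 to str-106, at least 98.98% of each window was unique.

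Similar gene copies can lose reads that map to several places, so the uniqueness of each window was measured as the share of its 32-base stretches that occur once in the genome. In 55 members (21.2%) that share was under 90%, beside 17.1% of the neighbours, and in the runs of 5 or more it was 33.7% of genes. Among windows of at least 90%, 21.5% of 205 members and 36.2% of 1797 neighbours had a replicate 1 summit, and 6.83% and 19.8% a replicate 2 summit. In 15 members no stretch of the window was unique, and 0 of these had a summit in any list, so no binding and binding that cannot be mapped cannot be told apart there. Among the windows with at least 90% unique stretches, the replicate 1 shares were 26.9% for single genes, 20.5% for short runs and 16.4% for runs of 5 or more. The pooled shares of these classes were 47.8%, 34.9% and 40%, with no steady fall by run length. Median GC content was 33.7% in member windows and 34.95% in neighbour windows, and the median gap to the next gene upstream was 1029 and 971 bp. The part of these small differences in the counts was not tested.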

How the data were processed

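The authors deposited narrowPeak lists without a header, with a signal value per peak and a summit offset. Per the deposited records, each replicate was called against a control, and the pooled and IDR lists derive from both replicates. Neither the aligner nor the caller is named in those records. The ce11 lists were used and the ce10 lists were not. Summits were placed in windows of Ensembl release 115 genes, counted per gene_id, since 12 members share 6 symbols. Genes of unnamed receptors cannot be recognised and may stand among the neighbours. Sequence came from the WBcel235 (ce11) assembly of RefSeq. No test was made. The counting steps were tested on simulated data. The members, lists and comparisons were chosen with earlier results of these data known.

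Genes named were the members with an IDR summit, those with a summit in both replicates, the best-ranked member of each list, 6 genes of known role, the genes nearest to those IDR summits, other receptors with an IDR summit, and elt-3. The alternatives were other windows, gene starts, peak sets, neighbour distances, motifs and motif windows. Python 3.11.15 was used with numpy 2.4.6, pandas 2.3.3, scipy 1.17.1 and matplotlib 3.10.9.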

Additional observations from a re-analysis of the deposited data

How the results depend on the processing

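The count of 3 members with an IDR summit was 3 or 4 when the strongest peaks of a single replicate replaced the IDR set. The all-gene shares were then 3.38% and 3.44%. The count became 0 in the window of 500 and 250 bp, 6 in that of 3000 and 1000 bp, 5 with the strongest pooled peaks and 5 when each peak went to its nearest start alone. In that order the member shares were 0%, 2.31%, 1.92% and 1.92%, beside 1.68%, 4.47%, 3.41% and 4.23% of all genes. The count stayed at 3 with any transcript start, with the upper part of the IDR set by signal and with IDR peaks overlapped in both replicates. There the all-gene shares were 3.38%, 1.59% and 2.71%. The neighbours' 3.41% became 2.17% and 5.17% in the narrow and wide windows, 1.98% in that upper part, and 4.60% among neighbours with a lettered symbol, an alternative added after seeing the data. Other neighbour distances left it between 2.996% and 3.17%. Averaging over each member's own neighbours, also added after seeing the data, gave 3.07%. In the narrow window the members with a summit fell from 48 to 18 in replicate 1, from 15 to 3 in replicate 2, from 96 to 38 in the pooled list and from 10 to 1 in both replicates. With each list held to the length of the IDR set they were 3, 4, 5 and 2. The all-gene shares for the first 3 of these were 3.38%, 3.44% and 3.41%. For summits in both replicates no all-gene share is given under these settings. The narrow window left 0 IDR summits nearest to a str or srd start, in place of 2. The 50% of members with the motif upstream became 25.4% for TGATAA and 99.2% for the whole window. The narrow window and shorter lists hold fewer summits by construction, and other causes were not tested. No paired analysis was possible because there is 1 group. Read depth is unknown, so a gene without a summit may be bound below the calling limit of a list.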

Other observations

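In the window of 3000 and 1000 bp, IDR summits were also found upstream of srd-55, str-249 and str-204, with signals of 51.9, 95.9 and 57.9. The str-249 summit lay 2140 bp from that gene, 291 bp from the start of srlf-7 and its peak covers the non-coding RNA gene C42D4.17, and the str-204 summit lay 2445 bp from that gene, in the 5′ UTR of ugt-39, 104 bp inside. The srd-55 peak overlapped no peak in either replicate list or the pooled list. These genes were named after their values were seen.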
